A study of Mus musculus with 8 samples.

Results

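The microRNA gene loci described here are 78 rows of the deposited count tables, out of 33885 rows in all. They were chosen on their symbols and on their counts. A row had to carry a microRNA symbol of the form Mir or Mirlet followed by a number, and at least 50 counts summed over the 8 libraries. Of 1184 rows with such a symbol, 1009 held 0 counts in all 8 libraries, 175 held at least 1 count and 80 reached the threshold. Mir132 and Mir212 were then left out, which gave 78. Of these, 73 are named for a microRNA precursor and 5 for the long transcript that carries one (Mir670hg, Mir155hg, Mir142hg, Mir17hg and Mir217hg). The 73 precursor rows are 58 to 139 bases long. Just inside the threshold were Mir29b-1 and Mir344d-1 with 52 counts each and Mir320 with 50, and just outside were Mir6361 with 48, Mir195a with 38 and Mir187 with 37.

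A microRNA gene is transcribed as a long primary transcript, often as part of a noncoding or protein-coding host gene. Drosha with its partner Dgcr8 cuts the hairpin precursor out of it in the nucleus, Dicer cuts the hairpin in the cytoplasm, and an Argonaute protein loads the mature strand, whose seed at the 5′ end pairs with target messenger RNAs. Total RNA libraries read primary and host transcripts. The counts at these rows thus describe reads assigned to a locus, and not the amount of mature microRNA. Whether reads from similar sequences elsewhere in the genome were counted at some rows was not tested. Many of the members lie in the imprinted Dlk1-Dio3 region, where long noncoding transcripts (Meg3, Rian, Mirg) and the microRNAs among them are made from the maternal chromosome and are abundant in brain.

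The libraries are total RNA from adult male C57Bl6J mice, 2 per group. In the nucleus accumbens (NAc), a part of the ventral striatum involved in reward, 2 libraries came from mice given cocaine at 7.5 mg/kg by intraperitoneal injection in a conditioned place preference procedure, and 2 from mice that stayed in the home cage. In the medial prefrontal cortex (mPFC), 2 libraries came from mice defeated by aggressive CD1 males and 2 from home-cage mice. Tissue was taken 15 minutes after the experience. The labels do not say whether a library is 1 animal or a pool, and the cocaine group has no saline-injected counterpart here, so injection, chamber and drug cannot be told apart.

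Library totals ran from 111901829 to 179479978 counts, and the members took 56.92 to 82.67 CPM (counts per 1000000 counts of a library). All NAc libraries expressed striatal neuron markers above, and all mPFC libraries below, the cortical glutamatergic markers. The NAc libraries numbered 2 stood apart from those numbered 1. The difference between the mean log2 levels of the 9 striatal and the 8 cortical markers was 3.07 and 0.77 in the cocaine libraries numbered 1 and 2, 3.73 and 0.60 in the home-cage NAc, and -3.12 to -3.05 in the mPFC.

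Sequences are shown for the members that the regional results turn on and for the members that share a seed. They are mature sequences of RefSeq (build GRCm38.p6), written 5′ to 3′ with the seed, bases 2 to 8, in capitals. The first set comes from the Dlk1-Dio3 members that the results below turn on (Mir370, Mir540, Mir665, Mir3070b, Mir487b and Mir376c) and from those that share a seed with one of them. Among these are Mir3070a and Mir3070b, which carry the same 5p sequence, and Mir376c with its neighbour Mir376b.

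miR-370-3p: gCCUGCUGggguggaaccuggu

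miR-370-5p: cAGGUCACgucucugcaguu

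miR-1193-3p: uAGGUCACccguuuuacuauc

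miR-540-3p: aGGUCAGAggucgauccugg

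miR-665-3p: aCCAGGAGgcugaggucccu

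miR-3070-5p: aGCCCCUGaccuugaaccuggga

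miR-3070-3p: uGGUGCUAccgucagggguaga

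miR-3070-2-3p: uGGUGCUAuggucagggguaga

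miR-376b-5p: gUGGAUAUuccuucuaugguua

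miR-376c-5p: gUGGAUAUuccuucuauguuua

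miR-487b-5p: uGGUUAUCccuguccucuucg

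The second set holds the seeds shared by members elsewhere in the genome, with Mir138-1 added for its regional difference.

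let-7b-5p: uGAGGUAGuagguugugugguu

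let-7c-5p: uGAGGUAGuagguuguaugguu

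let-7i-5p: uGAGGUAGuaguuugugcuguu

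let-7b-3p: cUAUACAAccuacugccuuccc

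let-7c-2-3p: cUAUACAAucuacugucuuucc

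miR-344-5p: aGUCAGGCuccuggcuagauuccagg

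miR-344g-5p: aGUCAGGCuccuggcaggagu

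miR-344d-1-5p: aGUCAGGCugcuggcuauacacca

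miR-29a-3p: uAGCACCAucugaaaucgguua

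miR-29b-3p: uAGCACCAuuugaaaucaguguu

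miR-221-3p: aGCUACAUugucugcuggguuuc

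miR-222-3p: aGCUACAUcuggcuacugggucu

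miR-138-5p: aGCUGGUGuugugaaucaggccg

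In all, 68 of the 78 members matched 116 mature sequences with 105 different seeds, and 9 seeds occurred at more than 1 locus. The let-7 seed GAGGUAG was shared by Mirlet7b, Mirlet7c-2 and Mirlet7i, and GUCAGGC by Mir344-2, Mir344d-1 and Mir344g. Mir221 and Mir222, neighbours on chromosome X, shared GCUACAU. All 25 Dlk1-Dio3 members had at least 1 mature sequence, and among their 48 sequences 44 seeds were different. The members of this cluster were thus near one another in the genome and mostly unlike in seed. Mir370 and Mir1193 shared AGGUCAC on opposite arms of their hairpins.

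The rows with reads were set apart by where they lie. Among microRNA rows placed by GENCODE M21 (GRCm38), 748 overlapped another gene of the tables on the same strand, and 742 of them (99.2%) held 0 counts in every library. Of 129 rows over a gene on the opposite strand, 127 (98.4%) held 0. Of 301 rows with no other tabulated gene, 136 (45.2%) held 0, and 73 of the 78 members came from this class. Mir124a-1, one of the loci of the main neuronal microRNA, was at 0 while its host transcript Mir124a-1hg stood at 142 to 177 CPM in the 8 libraries, with totals scaled from here on by the trimmed mean of M values. Mir9-3 was likewise at 0, and its host Mir9-3hg stood at 144 to 155 CPM in the NAc and 97.6 to 116 CPM in the mPFC. These hosts were picked after their values were seen.

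**Figure D1:**
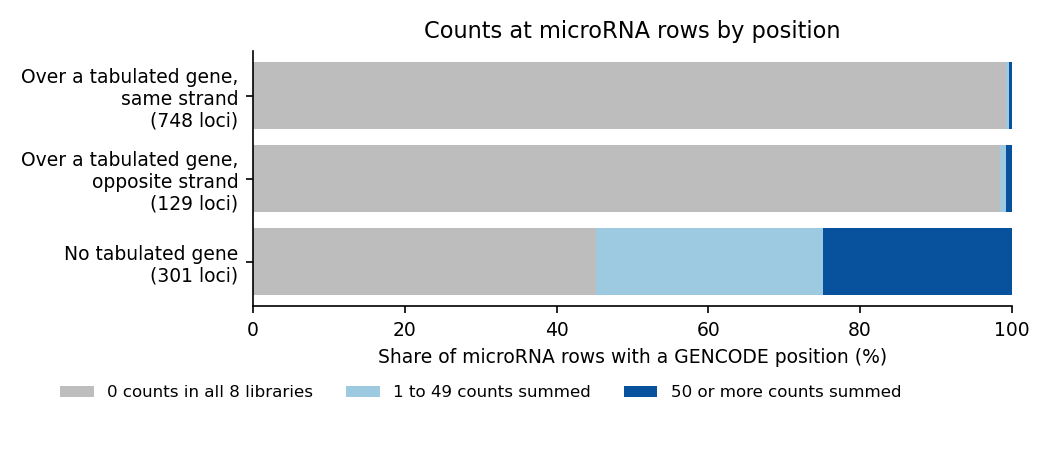
Share of microRNA rows (horizontal axis, %) with 0 counts, 1 to 49 counts or 50 or more counts summed over the 8 libraries, by position relative to the other genes of the tables. Rows over another gene were at 0 in 99.2% (same strand) and 98.4% (opposite strand), and rows with no other gene in 45.2%.

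Named microRNA groups were represented mostly by loci with no other counted gene over them. Exceptions were Mir124a-3 and Mir29b-1, which overlap the tabulated genes Gm27032 and Gm27019 on the same strand. Of 48 rows of neuronal microRNA loci, 41 were at 0, 39 of them over a tabulated gene, and the members were Mir124a-3, Mir137, Mir138-1, Mir221 and Mir222. Of 24 rows of glial, vascular and blood loci, 14 were at 0, and the members were Mir145a, Mir219a-2, Mir23a, Mir29a and Mir29b-1. Of 12 let-7 rows, 9 were at 0, all 9 over a tabulated gene. In the Dlk1-Dio3 interval the 61 rows followed the same pattern. All 7 opposite Rtl1 (Mir127, Mir136 and Mir433 among them), the 2 in Meg3 and the 13 in Mirg alone (Mir134 and Mir485 among them) were at 0. Of the 35 rows there with no tabulated gene, 25 were members and 10 were at 0.

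The members fell into 4 groups. The Dlk1-Dio3 group on chromosome 12 held 25, of which 24 lie on the forward strand between Mir673 and Mir544 and 1, Mir1247, on the reverse strand next to Dio3. The Mir344 group on chromosome 7 held 5, the remaining precursor rows 43, and the host transcripts 5. Members were found on 17 chromosomes, and 35 of the 78 lay within 20 kb of another member. No member lay wholly inside a tabulated gene on its own strand, so no member could be set beside a host. For 14 members the annotation places a host without a row in the tables, such as Rian for Mir341, Mir1188 and Mir370 and Dleu2 for Mir15a.

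Most of the reads at precursor rows came from Dlk1-Dio3. The 73 precursor rows held 51717 counts over the 8 libraries, of which the 25 Dlk1-Dio3 rows held 75%. Mir341 and Mir1188, neighbours inside Rian (chr12:109611500-109611595 and chr12:109611822-109611941, forward strand), held 29.9%. Per length they led the precursor rows, with means over the 8 libraries of 65.0 CPM per kilobase for Mir341 and 62.3 CPM per kilobase for Mir1188. Next came Mir344-2 at 22.5, Mir3070b at 22.1 and Mir665 at 20.7 CPM per kilobase. The median was 12.7 CPM per kilobase for Dlk1-Dio3, 3.05 for the Mir344 group and 1.19 for the other precursor rows. The host transcripts were left out of this order, since their spans include introns.

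MicroRNA loci of the Dlk1-Dio3 region had higher values in the NAc than in the mPFC. In the home-cage libraries 24 of 25 had a log2 fold change above 0, with a median of 0.58, against 0.01 over all 18300 genes tested. The largest of these, 1.88, was that of Mir1247. Of its 57 counts over the 8 libraries, 34 came from the NAc home cage, so the choice of members favours its value. In the exposed libraries, none of which enters the home-cage comparison, all 24 tested were above 0, again with a median of 0.58 against 0.01. Mir370 and Mir540 were called in both sets by edgeR's quasi-likelihood test at an adjusted p under 0.05. In the exposed libraries the region goes with the kind of experience, and these cannot be told apart.

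Mir370 lies at chr12:109618258-109618336 on the forward strand, inside Rian. It stood at 1.25 and 1.12 CPM in the NAc of home-cage mice, 1.24 and 1.18 CPM in the cocaine libraries, 0.531 and 0.522 CPM in the mPFC home-cage libraries and 0.548 and 0.466 CPM in the defeat libraries. All 4 NAc libraries were high, all 4 mPFC libraries were low, and the gap between the regions was wider than the spread within either. The log2 fold change of NAc against mPFC was 1.16 (SE 0.206, edgeR adjusted p = 0.0278) in home-cage and 1.27 (SE 0.187, adjusted p = 0.00639) in exposed libraries. Its neighbour Mir341, in the same annotated transcript, differed less: it stood at 6.42 to 7.20 CPM in the NAc and 5.22 to 6.22 CPM in the mPFC. The log2 fold changes of Mir341 were 0.17 (SE 0.131) and 0.29 (SE 0.103), and neither passed the test. For each 100 counts of Mir341, a library held 17.3 to 18.4 counts of Mir370 in the NAc and 8.06 to 10.5 in the mPFC. This ratio within a library does not depend on the scaling, and it was nearly the same in the NAc libraries numbered 1 and 2 (17.3 and 17.4 in the home cage, 18 and 18.4 after cocaine). The pair was picked after its values were seen, so the ratio is given without a test.

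Mir540 (chr12:109586080-109586146) stood at 1.29 and 1.13 CPM in the NAc home cage, 1.36 and 1.22 after cocaine, 0.626 and 0.638 in the mPFC home cage and 0.663 and 0.688 after defeat. The 2 regions did not overlap. Its log2 fold change was 0.93 (SE 0.204, adjusted p = 0.0449) in home-cage and 0.94 (SE 0.172, adjusted p = 0.0116) in exposed libraries. Mir665, 167 bases further along, stood at 3.25 and 2.14 CPM in the NAc home cage, 2.56 and 2.27 after cocaine, 1.26 and 1.38 in the mPFC home cage and 1.31 and 1.39 after defeat. The regions were again separate, but the NAc home-cage libraries were far apart, and the log2 difference passed only in the exposed libraries (0.85, SE 0.145, adjusted p = 0.00966) and not in the home-cage libraries (1.03, SE 0.249, adjusted p = 0.0573).

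**Figure D2:**
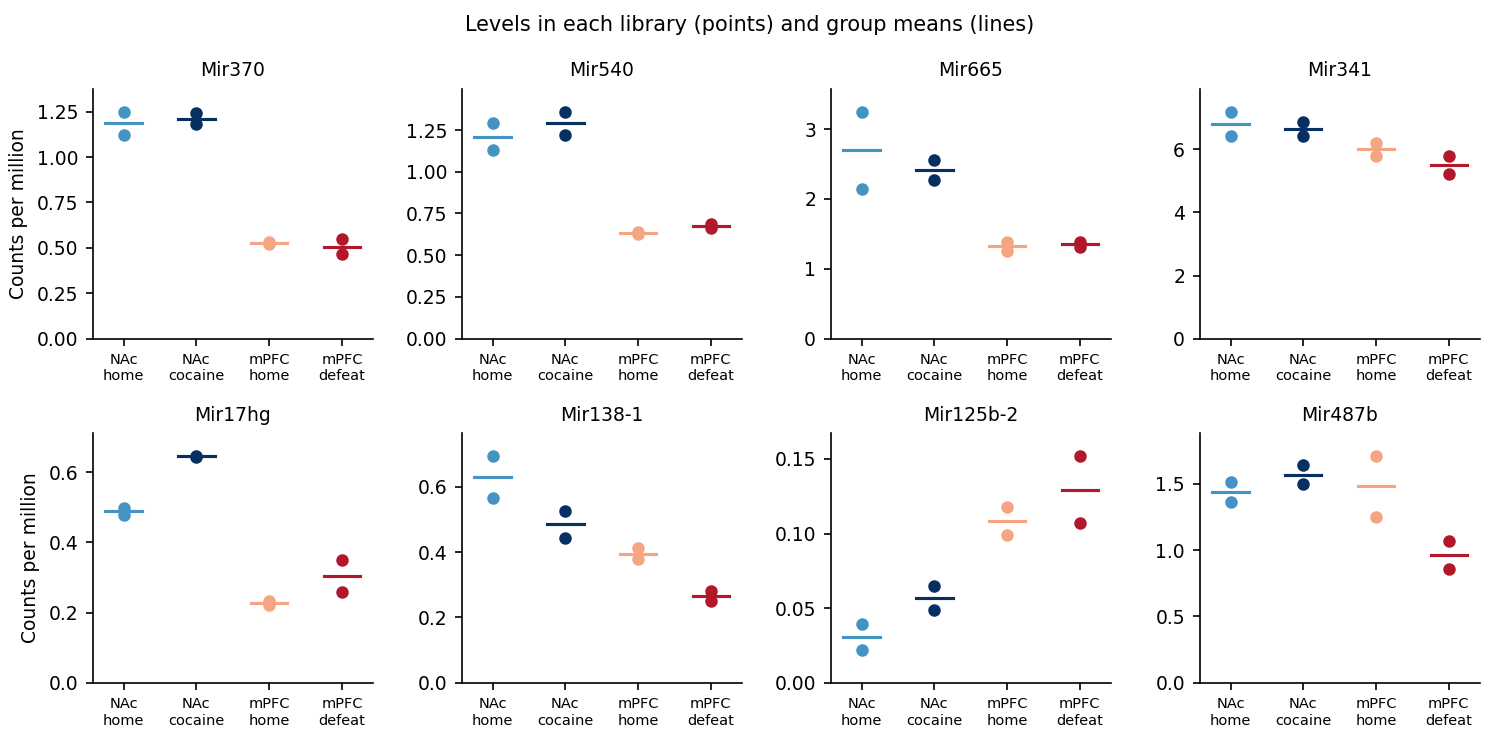
Levels (vertical axis, CPM from 0) of 8 members in the 8 libraries, with points for libraries and lines for group means. Mir370, Mir540, Mir665, Mir17hg and Mir138-1 lie higher in all 4 NAc libraries than in all 4 mPFC libraries, Mir125b-2 lies lower in the 4 NAc libraries, and Mir487b lies below its controls after defeat.

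Across all members the home-cage comparison called 2 of 64 higher in the NAc (3.12%), where 7.01% of all genes were called higher. It called 0 lower, where 5.35% of all genes were. In the exposed libraries 13 of 67 members were called higher (19.4%), close to the 19.2% over all genes, and 0 lower, against 17.1% over all genes. With all libraries in the fit, none of these members was called lower in the NAc in either comparison. DESeq2 called 4 members in home-cage libraries, where it also called more genes than edgeR, and 10 in exposed libraries. Its gene total in exposed libraries is not given here, so its counts of members are a description only. In edgeR an unadjusted p under 0.05 was reached by 14 of 64 members in home-cage libraries, 12 of them higher. Of all 18300 genes tested there, 5763 reached it, 3126 of them higher. In exposed libraries 22 of 67 members reached it, 20 of them higher. Of all 18362 genes tested there, 8739 reached it, 4553 of them higher. The counts of called members rested on the mPFC pairs. Calls over all genes also moved widely when 1 library was left out, as given in the closing section. This is thus not particular to the members. Gene totals are not given here for each of these fits, so the member counts that follow are not set against all genes. Without either mPFC home-cage library 0 members were called in the home-cage comparison, without either defeat library 0 in the exposed comparison, and without the NAc home-cage library numbered 2 the count rose to 21, all higher. Without the NAc home-cage library numbered 1, 8 members were called higher and 1 lower, Mir674 (-1.13, adjusted p = 0.01). Without the cocaine library numbered 1, 16 were called higher and 1 lower, Mir217hg (-2.43, adjusted p = 0.0143). Without the cocaine library numbered 2, 22 were called higher and 1 lower, Mir6236 (-4.39, adjusted p = 4.65e-05). Mir6236 was among those called higher without the library numbered 1 (1.47, adjusted p = 0.000406) and had 0.51 (SE 1.16) with both, so its direction is that of 1 library.

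Of the 13 members called in exposed libraries, 11 were Dlk1-Dio3 loci. By size of the log2 fold change they were led by Mir673 (1.46, SE 0.33), Mir370 and Mir540, followed by Mir665, Mir493 (0.82, SE 0.181) and Mir3070b (0.80, SE 0.139), and completed by Mir487b, Mir3070a, Mir544, Mir667 and Mir1188. The adjusted p of these 11 ran up to 0.0471, the value of Mir667. Mir1188 had the smallest of the 11 differences, 0.42 (SE 0.102, adjusted p = 0.0264). Mir487b was the exception to the agreement between sets: its log2 fold change was -0.05 (SE 0.222) in home-cage libraries and 0.71 (SE 0.181) in exposed libraries.

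The size of the difference varied along the cluster. From Mir673 to Mir3070b, just downstream of Meg3, the 7 members had median log2 fold changes of 0.79 in home-cage and 0.85 in exposed libraries. The 14 members from Mir494 to Mir544, just upstream of Mirg, had medians of 0.46 and 0.54. Between them the 3 members in Rian had medians of 0.46 and 0.42, with Mir370 at the top and Mir341 at the bottom. Summed over each stretch, the 7 upstream members took 9.39 to 12.2 CPM in the NAc and 5.64 to 6.83 CPM in the mPFC, the Rian members 15.3 to 18 and 11.7 to 13.9, and the 14 downstream members 11.9 to 15.3 and 8.40 to 10.4. In each of the 3 stretches the lowest NAc library lay above the highest mPFC library. The stretches were marked off by gaps in position, and differences among them were not tested.

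**Figure D3:**
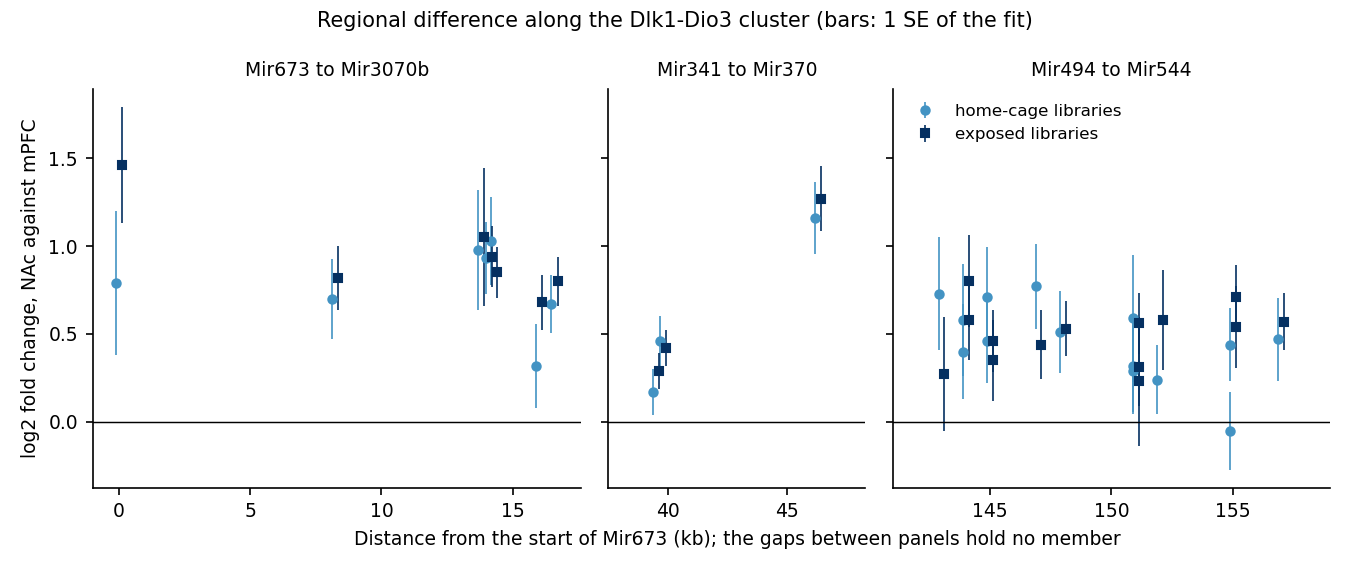
Log2 fold change of NAc against mPFC (vertical axis, with 1 standard error of the fit) against distance from the start of Mir673 in kilobases, for the 24 forward-strand members in home-cage and in exposed libraries. The medians were 0.79 and 0.85 in the left stretch, and 0.46 and 0.54 in the right stretch, while Mir370 reached 1.16 and 1.27.

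The tabulated long transcripts of the interval moved less than most of these loci. Meg3, the noncoding RNA at its start, had log2 fold changes of 0.19 (SE 0.131) and 0.25 (SE 0.108) and was called in neither set. Mirg had 0.31 in each set, called in the exposed libraries (SE 0.0693, adjusted p = 0.0203) and not in the home-cage libraries (SE 0.151). Rtl1, a retrotransposon-derived gene of the paternal chromosome, had 0.44 (SE 0.139) and 0.32 (SE 0.0867, adjusted p = 0.0371), called in the exposed libraries only. Dlk1, a paternally expressed Notch-like ligand at the edge of the region, was called in both sets, at 4.29 (SE 0.949, adjusted p = 0.0461) and 3.05 (SE 0.455, adjusted p = 0.00659). It stood at 51.9 and 7.52 CPM in the NAc home cage, 24.2 and 9.45 CPM after cocaine and 1.28 to 2.10 CPM in the mPFC. Without the NAc library numbered 1 its log2 fold changes were 2.30 and 2.22, and without either mPFC library of a set it was not called (adjusted p = 0.303 and 0.316 in home-cage, 0.0755 and 0.0619 in exposed libraries). For each 10000 counts of Meg3 a library held 4.89 to 5.67 counts of Mir370 in the NAc and 2.41 to 3.15 in the mPFC, while the same ratio for Mir341 was 28.2 to 31.8 and 29.6 to 30.8. These neighbours were picked after their values were seen.

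Markers of other cells also moved with region. The 9 oligodendrocyte markers summed to 2310 to 2610 CPM in the cocaine libraries, 2450 and 1380 in the NAc home cage, and 1150 to 1540 in the mPFC. All 9 were called higher in the exposed comparison (median log2 fold change 0.94). In the home-cage comparison all 9 had values above 0 (median 0.41) and 0 were called. The 8 cortical glutamatergic markers were lower in the NAc in every case by value, with 7 called in the exposed and 2 in the home-cage comparison. Fewer cells of a type and less RNA per cell cannot be told apart in such samples, and the part of these markers in the regional differences was not tested. Within the NAc, the home-cage libraries numbered 1 and 2 held 2450 and 1380 CPM of the oligodendrocyte markers and 45.5 and 37.7 CPM of the Dlk1-Dio3 loci. The cocaine libraries numbered 1 and 2 held 2610 and 2310 CPM of these markers and 40.6 and 37.2 CPM of the loci. How the 2 sums relate was not tested. Choroid plexus and ependyma markers summed to 10.3 to 27.1 CPM in the NAc and 4.75 to 6.59 in the mPFC. Of the 6 genes of this list 5 were tested, all 5 had values above 0 in both regional comparisons, 1 was called in home-cage and 3 in exposed libraries. Clic6 stood at 2.94 to 11.3 CPM in the NAc and 0.108 to 0.244 CPM in the mPFC, and Ttr, a transport protein abundant in choroid plexus, held 64 to 731 counts in the NAc and 37 to 176 in the mPFC. Folr1, a folate receptor of choroid plexus, held 0 to 4 counts in any library and was not tested. The part of these markers was not tested either.

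Outside Dlk1-Dio3 the largest regional difference among called members was that of Mir17hg, the host transcript of the miR-17-92 cluster, which is known for promoting cell proliferation. It stood at 0.497 and 0.479 CPM in the NAc home cage, 0.646 and 0.644 after cocaine, 0.221 and 0.234 in the mPFC home cage and 0.259 and 0.351 after defeat. The regions did not overlap. Its log2 fold change was 1.09 in each set, called in exposed libraries (SE 0.242, adjusted p = 0.0207) and just short of a call in home-cage libraries (SE 0.257, adjusted p = 0.0536). Mir138-1, whose mature product limits dendritic spine size in hippocampal neurons, stood at 0.695 and 0.566 CPM in the NAc home cage, 0.445 and 0.525 after cocaine, 0.413 and 0.378 in the mPFC home cage and 0.282 and 0.251 after defeat. All NAc libraries lay above all mPFC libraries, and the difference was called in the exposed set (0.88, SE 0.241, adjusted p = 0.0378) but not in the home-cage set (0.67, SE 0.249, adjusted p = 0.142).

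Mir125b-2 was the 1 member whose 4 NAc libraries all lay below all 4 mPFC libraries. It held 7 and 3 counts in the NAc home cage, 9 and 7 after cocaine, 16 and 11 in the mPFC home cage and 20 and 15 after defeat. The summed NAc to mPFC ratio was 0.29 in home-cage and 0.439 in exposed libraries. Of its 88 counts, 62 came from the mPFC, and at the NAc rate in all libraries it would have held 48.5, under the 50 of the rule, so the ratios are a description. Neither difference passed the edgeR test (log2 fold changes of -1.77, adjusted p = 0.0791, and -1.17, adjusted p = 0.0807). The other members with values on this side were also not called with all libraries in the fit, although Mir674 and Mir217hg were without 1 NAc library, as given above. Mir142hg, host of a microRNA of blood-derived cells, had -0.59 and -0.18, Mir674 had -0.73 and -0.14, and Mir217hg had -0.40 and -1.57. Mir27a, at -0.96, could be tested only in home-cage libraries.

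Over all 8 libraries the 72 members with enough counts were split in the same way. In 24 (33.3%) every NAc library lay above every mPFC library, where 24.1% of all genes did so, and in 1 (1.39%) every NAc library lay below, where 22.8% of all genes did so. Of the 24, 17 were Dlk1-Dio3 loci, and the others were Mir29a, Mir6371, Mir344g, Mir138-1, Mir682, Mir17hg and Mir222. The choice of members by summed counts leans slightly toward rows with counts in the NAc, whose libraries include the largest. Among 59 members tested in both sets, 48 had the same sign in each, and the log2 fold changes correlated across loci at a Pearson r of 0.65 and a Spearman rho of 0.57. Neighbouring loci are not independent, so this is a description. For the 35 members outside Dlk1-Dio3 r was 0.62, with the same sign in 25.

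**Figure D4:**
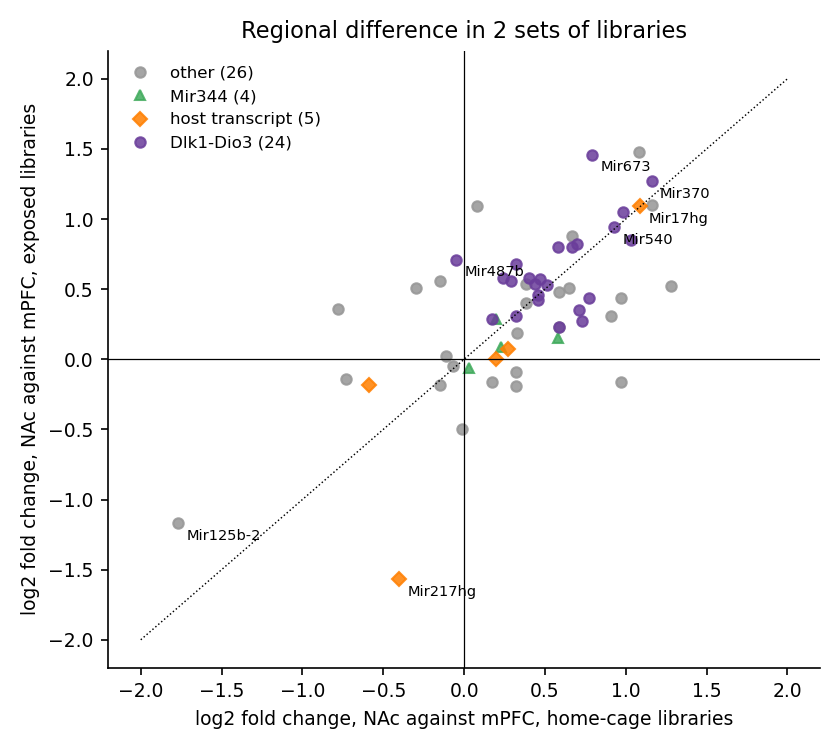
Log2 fold change of NAc against mPFC in exposed libraries (vertical axis) against the same in home-cage libraries (horizontal axis) for the 59 members tested in both, with the dotted line marking equal values. The 24 Dlk1-Dio3 members lie right of or near 0 and above 0, Mir125b-2 is at -1.77 and -1.17, and r over the 59 is 0.65.

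The Mir344 group showed little regional difference. Its 4 tested members had log2 fold changes of 0.03 to 0.58 in home-cage libraries and -0.06 to 0.29 in exposed libraries, and none was called. Mir344-2, the member with the highest level per length, stood at 1.65 to 1.99 CPM in the NAc and 1.57 to 2.01 CPM in the mPFC, which overlap. Mir344g stood at 1.38 to 1.54 and 1.20 to 1.26 CPM, which do not, with differences of 0.20 (SE 0.177) and 0.29 (SE 0.154). The let-7 members, whose products restrain growth genes and mark differentiated cells, were not called either. Mirlet7b had 0.38 (SE 0.212) and 0.40 (SE 0.173), and Mirlet7c-2, less than 1 kb before it on chromosome 15, had 0.17 (SE 0.246) and -0.16 (SE 0.23). Of the glial list, Mir219a-2, needed for oligodendrocyte maturation, had 0.91 (SE 0.542) and 0.31 (SE 0.426), and Mir29a 0.65 (SE 0.324) and 0.51 (SE 0.243), none called. Mir29b-1 and the overlapping gene Gm27019 had 0.87 (SE 0.449) and 0.83 (SE 0.155) in the exposed set, where Gm27019 alone was called (adjusted p = 0.0125), and their reads cannot be told apart where they overlap. Mir137 and Mir124a-3, of the neuronal list, had -0.01 and 0.32 in home-cage and -0.50 and -0.09 in exposed libraries.

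Mir670hg carried the most reads of any member, with 20737 counts over the 8 libraries. It stood at 23.6 and 15.2 CPM in the NAc home cage, 22.2 and 16.5 after cocaine, 16.6 and 15.3 in the mPFC home cage and 18.6 in each defeat library. The NAc libraries numbered 1 were high in both groups, and the regions overlapped. A second difference by number was seen on chromosome 16, where Mir193b, Mir365-1 and Mir6365 lie within 21.7 kb. Mir365-1 held 72 and 10 counts in the NAc home cage, 53 and 20 after cocaine, and 10 to 18 in the mPFC. Mir6365 held 29 and 4, then 10 and 5, and 2 to 4 in the mPFC, and Mir193b held 25 and 5, then 16 and 10, and 2 to 12. In each case the NAc libraries numbered 1, those with the higher striatal score, were the highest. Of the 58 counts of Mir6365 over the 8 libraries, 29 and 10 came from these 2 libraries. Its difference is thus a description that the choice of members favours. Of the 72 members with enough counts, 40 (55.6%) were higher in the library numbered 1 in both NAc groups, where 35.2% of all genes were. Lower in both were 10 (13.9%), where 36.9% of all genes were. Among the 25 Dlk1-Dio3 members these were 20 and 1, so the libraries with the higher striatal score also had the higher values at most of these loci.

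After cocaine conditioning no member was called in the NAc. The test called 0 of 65 members and 0 of 18418 genes (0%), with an unadjusted p under 0.05 for 1 member and 211 genes, and DESeq2 called 0 members and 4 genes. The median log2 fold change was -0.07 over the members, -0.09 over the 25 Dlk1-Dio3 loci and -0.01 over all genes. In 6 members (9.23%) both cocaine libraries lay above both controls, against 11.2% of all genes, and in 16 (24.6%) both lay below, against 13.2%.

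The member with the smallest p was Mir1247, on the reverse strand near Dio3, which held 17 counts in each home-cage library and 3 and 5 after cocaine. The groups did not overlap. Of its 57 counts over the 8 libraries, 34 came from the NAc home cage, and at the cocaine rate there it would have held 31.9 and missed the rule of 50, so its difference is a description that the choice of members favours. Its log2 fold change was -1.91 (SE 0.479, unadjusted p = 0.0134, edgeR adjusted p = 1). Mir6240 held 18 and 24 counts in the controls and 3 and 9 after cocaine (-1.66, SE 0.631, adjusted p = 1). Of its 81 counts over the 8 libraries, 42 came from these controls and 24 from the mPFC home cage. The choice of members thus favours its difference too. On the other side Mir17hg, at the levels above, had 0.41 (SE 0.203), Mir3089 had 1.16 (SE 0.671) on 4 and 11 counts against 18 and 13, Mir29b-1 had 0.64 (SE 0.41) and Mir674 had 0.50 (SE 0.331). Mir6236 held 1 and 67 counts in the 2 cocaine libraries and 27 and 41 in their controls, so 1 library decides its value. Mir8091 (-0.63, SE 0.33), Mir221 (-0.53, SE 0.309), and Mirlet7c-2 (-0.39, SE 0.23) were also low in both cocaine libraries, with an adjusted p of 1 each.

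After social defeat no member was called in the mPFC either, although 127 of 18027 genes (0.704%) were. The test called 0 of 62 members, with an unadjusted p under 0.05 for 4 members and 1288 genes, and DESeq2 called 0 members and 94 genes. The median log2 fold change was -0.07 over the members and -0.15 over the 24 tested Dlk1-Dio3 loci, of which 18 were below 0, against 0.00 over all genes. In 5 members (8.06%) both defeat libraries lay above both controls, against 18.3% of all genes, and in 17 (27.4%) both lay below, against 15.8%. Blood cell markers summed to 62.0 and 57.2 CPM in the defeat libraries and 23.5 and 23.1 in their controls. Most of this was the globin Hba-a1, at 52 and 46.7 CPM after defeat and 16.7 and 17 in the controls. Ptprc, the leukocyte marker of the list, stood at 3.53 and 3.78 CPM after defeat and 3.99 and 3.5 in the controls. The part of these markers in the values of the members was not tested.

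**Figure D5:**
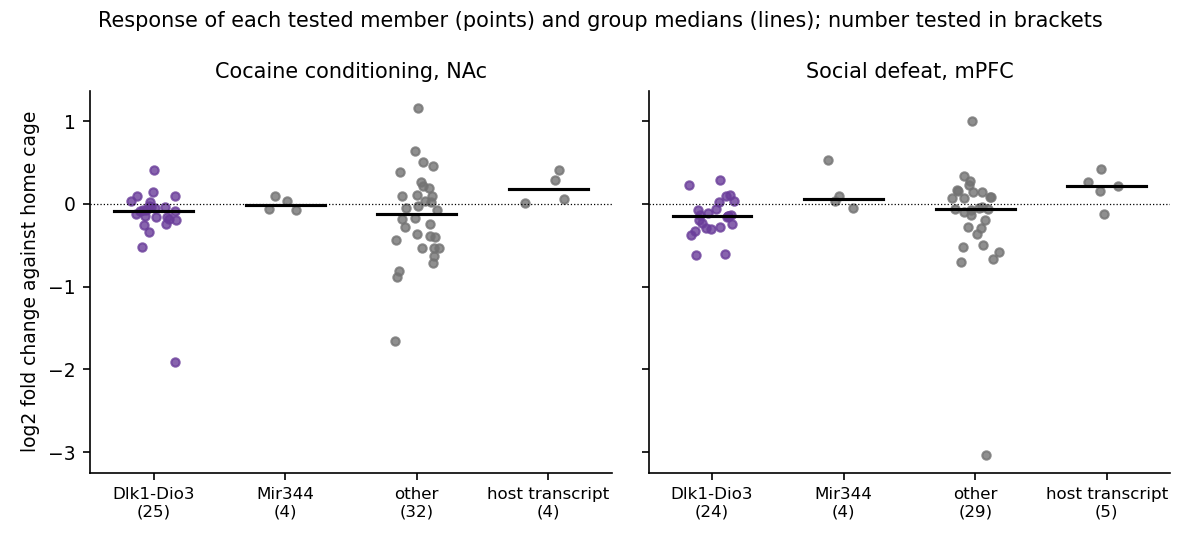
Log2 fold change against the home cage (vertical axis) of each tested member after cocaine conditioning in the NAc and after social defeat in the mPFC, by genomic group, with lines at the group medians. The Dlk1-Dio3 medians are -0.09 and -0.15, and no point passed the test.

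The defeat values with the smallest p were on the lower side. Mir6240 held 11 and 13 counts in the mPFC controls and 3 and 0 after defeat, a summed ratio of 0.114 (95% exact interval 0.0219 to 0.375, counting error only). Its fitted log2 value was -3.04 (SE 0.816, edgeR adjusted p = 0.0595). Of its 81 counts over the 8 libraries, 24 came from these controls and 42 from the NAc home cage. Its difference is thus a description that the choice of members favours. Mir487b stood at 1.25 and 1.71 CPM in the controls and 1.07 and 0.86 after defeat (-0.62, SE 0.182, adjusted p = 0.119). Mir376c, of a family whose precursors are edited by adenosine deaminases in brain, stood at 1.39 and 1.05 CPM and at 0.80 and 0.817 (-0.61, SE 0.19, adjusted p = 0.17). In all 3 the groups did not overlap. Mir487b was called with no low-count filter (adjusted p = 0.0391) and without the mPFC home-cage library numbered 1 (adjusted p = 0.00684), and Mir376c without that numbered 2 (adjusted p = 0.0331). Mir138-1 had -0.58 (SE 0.293) and Mir6236 -0.70 (SE 0.355). Above 0 were Mir670hg at 0.21 (SE 0.086, unadjusted p = 0.0174), Mir344f at 0.53 (SE 0.475), Mir17hg at 0.42 (SE 0.324) and Mir495 at 0.29 (SE 0.223). Mir7233, on 2 and 10 counts in the controls and 11 and 16 after defeat, also lay above 0 in the fit (SE 0.599).

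The 2 experiences share no library, so their values can be set side by side. Of 57 members tested in both, 6 lay below both controls after each experience: Mir6240, Mir8109, Mir138-1, Mir3070b, Mir376c and Mir221. This is 10.5% of them, where 1.92% of all genes tested in both did so. The choice of members favours the place of Mir6240, whose counts came mostly from home-cage libraries. Mir8109 held 12 and 9 counts in the mPFC controls and 9 in each defeat library. Mir3070b and Mir376c are both Dlk1-Dio3 loci. The share is thus a description. Mir17hg alone (1.75%) lay above both controls in each, where 2.32% of all genes did. None of the 7 was called in either comparison. The test of the difference between the responses called 0 of 72 members and 0 of 18783 genes (0%), with an unadjusted p under 0.05 for 2 members, Mir3569 and Mir487b, and 415 genes, and DESeq2 called 0 members and 2 genes. Mir487b had a difference of 0.76 (SE 0.285, adjusted p = 1), and the largest in size were those of Mir1247 (-1.93, SE 1.12) and Mir1932 (1.79, SE 1.22), neither called. The loci left out, Mir132 and Mir212, were called higher after defeat (1.82, SE 0.208, and 1.94, SE 0.117) and were not called after cocaine (1.29, SE 0.206, and 1.12, SE 0.233, adjusted p = 1).

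The genes that make and use microRNAs were called about as often as all genes in the exposed comparison, and were not called after either experience. Of 34 on the list, 33 were tested, and 0 were called after cocaine or defeat, with medians of -0.03 and 0.02. In the home-cage regional comparison 1 was called, Mov10, a helicase of the silencing complex, at 30.7 and 30.1 CPM in the NAc and 18.9 and 20.6 in the mPFC (0.61, SE 0.0973, adjusted p = 0.0212). In exposed libraries Mov10 had 0.62 (SE 0.0757, adjusted p = 0.00394). There 6 of 33 genes of the list were called higher in the NAc and 5 lower, where 19.2% and 17.1% of all genes were, with a median of 0.02. Higher were Lin28b, which blocks let-7 processing (0.50, SE 0.0956), Tnrc6c, a scaffold of the silencing complex (0.37, SE 0.0792), Dis3l2, which degrades uridylated let-7 precursors, Tarbp2, a Dicer partner, and Ddx17, a helicase of the Drosha complex. Lower were Hsp90aa1 (-0.46, SE 0.079), Fmr1 (-0.45, SE 0.0624), Ran (-0.42, SE 0.0714), Hspa8 (-0.38, SE 0.0918) and Tsn (-0.22, SE 0.0589). Drosha itself had 0.01 and 0.02 and Dicer1 0.19 (SE 0.101) and 0.15 (SE 0.0632), none called.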

How the data were processed

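The authors deposited 2 tables of raw read counts per gene symbol, 1 for the NAc and 1 for the mPFC libraries. Reads were aligned to mm10 with STAR 2.7.1a and counted with featureCounts, per the submitters' processing notes; the sources used here do not give the annotation, the strand setting or the treatment of reads over overlapping features. Columns were matched to samples by title. Gene positions came from GENCODE M21 and mature sequences from RefSeq, both of GRCm38. The members and lists were chosen with earlier results of these data known. Each comparison was fitted on all genes of its libraries with edgeR 4.0.16 (filterByExpr, TMM, quasi-likelihood test, R 4.3.3) with no covariate, Benjamini-Hochberg adjustment over all genes tested and a threshold of 0.05; a call means past that threshold. Log2 fold changes are on the same fit with its standard error, which was obtained from the fold change and its test statistic. Python 3.11.15, scipy 1.17.1 and DESeq2 1.42.0 were used for the rest. The fit was tested on simulated data. Members were named by a rule: those called, up to 8 per direction, or the 5 with the smallest p per direction where fewer than 5 passed, the 12 with the highest mean CPM, the 3 rows on each side of the count threshold and the most changed of each list. With 2 libraries per group an exact permutation test of a single value cannot go below a two-sided p of 0.33, so no such test was run. Nothing in the labels says that libraries of a group came from separate animals, so p-values may measure technical spread only. Alternatives were another scaling (RLE size factors), no low-count filter, DESeq2, the title number as a block, leaving out each library, and leaving out the 5 host transcripts.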

Additional observations from a re-analysis of the deposited data

Results flagged for a closer look

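Mir3569 on chromosome 7 moved in opposite directions after the 2 experiences, which is what drew attention to it. It held 23 and 20 counts in the NAc home cage and 26 and 27 after cocaine (0.13 and 0.145 CPM against 0.187 and 0.189 CPM). In the mPFC it held 33 and 25 counts in the home cage and 21 and 19 after defeat (0.243 and 0.225 CPM against 0.16 and 0.136 CPM). Both cocaine libraries lay above their controls and both defeat libraries below theirs. Of all genes tested, 11.2% lay above both controls after cocaine and 15.8% lay below both after defeat. The share of genes that did both was not counted, so the pattern is a description. The log2 fold changes were 0.46 (SE 0.294) and -0.67 (SE 0.369), and the difference between them was 1.13 (SE 0.381, unadjusted p = 0.0203, edgeR adjusted p = 1). The summed ratios of exposed to home-cage levels were 1.38 (95% exact interval 0.904 to 2.11) and 0.628 (0.409 to 0.956), covering counting error only. The 2 responses do not share a library. With 2 libraries per group no library could be examined as standing apart from its own group.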

How the results depend on the processing

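The calls rest on 2 libraries per group and on small counts: 15 of the 78 members averaged under 10 counts per library, 22 averaged 100 or more, and 11 to 16 members per comparison between 2 groups fell to the low-count filter. Of 395 values of the members named by rule under an alternative, none changed sign, 357 stayed on the same side of the threshold, 15 passed it newly and 23 no longer passed. Over all members and alternatives, a repeat chosen after seeing the data, 229 of 2726 values changed sign, 1 of them as a call: Mir6236 in exposed libraries, at 0.51 with all libraries, was called at -4.39 without the cocaine library numbered 2. In home-cage libraries the 2 members called for region became 5 with no low-count filter, 4 with DESeq2 and 1 with the replicate block, Mir370, which was called under each of these (Mir540 had an adjusted p of 0.0677 with the block); genes called went from 2262 to 3633 with DESeq2. Leaving out 1 library gave 0 to 21 members and 0 to 8048 genes there, and 0 to 23 members and 1133 to 9334 genes in exposed libraries. A lone library is assumed to vary like the other group, so a fit without an mPFC library takes its spread from the NAc pair. In defeat the 0 members called became 1 with no low-count filter, and leaving out a library gave 0 to 1 members and 58 to 238 genes, against 127. In cocaine the 0 genes called became 4 with DESeq2 and 38 with the replicate block, with 0 members called in every fit. The difference between responses gave 0 genes, 2 with DESeq2 and 0 to 1 without a library. Causes of these changes were not tested. The numbers pair nothing in the labels: deviations from the group means correlated at 0.57 between NAc cocaine and NAc home cage and at 0.07 between the home-cage groups, over 18783 genes. Leaving out the 5 host transcripts gave 12 in place of 13 exposed calls.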
